A study of Homo sapiens with 9 samples.

Results

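The ZNF genes are the numbered zinc finger genes of the human genome, and the ones described here were those expressed in untreated MDA-MB-231 cells, an established human triple-negative breast cancer line with mesenchymal features. Of 59453 gene names in the count table, 505 had the form ZNF and a number, with or without a final A or B, and 199 of these were chosen by a mean of at least 10 CPM (a gene's reads scaled to a common library total) over the 3 untreated libraries. All 199 members were tested, and of the other 306 names, 238 were tested too. RNA-Seq had been performed on 3 groups of 3 replicates, namely untreated cells, cells given the copper chelator TEPA, a polyamine, for 8 h, and cells given TEPA for 24 h. The sample labels give 8 mM TEPA for both treated groups, whereas the RNA sequencing methods of the study give a lower concentration. All groups were the same line grown in T75 flasks with serum, with no engineered allele named, and 1 untreated group served as the control of both times. The labels do not say whether replicates were separate cultures, so p-values measure the spread between these samples, which may be technical.

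Most ZNF proteins bind DNA through C2H2 fingers, short folds held by a zinc ion between a pair of cysteines and a pair of histidines, and arrays of these fingers read long DNA sequences. Many carry a KRAB box at the amino-terminal end, which binds TRIM28 (KAP1) and through it the methyltransferase SETDB1, HP1 proteins and the NuRD complex, so that a KRAB ZNF typically silences the repeats and genes it binds. Others carry a SCAN domain for pairing with each other, activate promoters, or bind RNA and ribosomes rather than DNA. KRAB genes arose by repeated duplication and lie in large clusters on chromosome 19.

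The members nearest above the limit were ZNF764 at 10.034 CPM, ZNF25 at 10.038 and ZNF653 at 10.05, and nearest below it were ZNF140 at 9.985, ZNF786 at 9.979 and ZNF180 at 9.97. The limit therefore cut through a continuous range of levels. Member levels in untreated cells ran from 10.03 to 128.6 CPM with a median of 21.03, and the lowest count of any member in any library was 178. From here on, CPM is scaled with TMM factors (0.978 to 1.039), which adjust each library for its composition. The coefficient of variation of members between replicates had a median of 4.17% in untreated cells, 4.42% at 8 h and 4.09% at 24 h.

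Total counts ran from 34633755 to 49342659 per library. The line's mesenchymal markers VIM, CD44, AXL, ZEB1 and CAV1 summed to 5697 to 6244 CPM in untreated cells, 7013 to 7183 CPM at 8 h and 5607 to 5836 CPM at 24 h. From 8 h to 24 h, 4 of the 5 were called lower and CAV1 higher, beside 28.8 and 26% of all genes tested. In every library ESR1 was at or below 0.24 CPM and PGR at 0. Some markers of other cell types also moved with the groups, in the order untreated, 8 h and 24 h. The 8 luminal breast markers summed to 486 to 518.8, 414.7 to 446.6 and 478.7 to 514 CPM. Most of this was KRT8, at 393 to 415, 328 to 355 and 404 to 438 CPM. KRT8 was called lower at 8 h (log2 -0.25 ± 0.04), as was ERBB2 (-0.15 ± 0.05), and KRT8 rose from 8 h to 24 h (0.29 ± 0.04). Against untreated cells, at 24 h ERBB2 was lower (log2 -0.62 ± 0.05) and GATA3 higher (0.42 ± 0.07). CDH1 went from 0.431 to 0.722 CPM in untreated cells to 2.33 to 3.89 CPM at 24 h. The 3 endothelial markers summed to 2.977 to 4.186, 0.9249 to 1.333 and 7.219 to 8.981 CPM, nearly all of it PECAM1, with VWF and CDH5 below 0.1 CPM. The leukocyte marker CD14 was at 2.85 to 5.04, 0.601 to 0.925 and 3.67 to 4.77 CPM, with CD3E at 0 and PTPRC and LYZ at or below 0.133 CPM. The 4 melanocyte markers summed to 0.989 to 1.226, 0.8499 to 1.412 and 1.667 to 2.503 CPM, with MLANA and TYR at 0. The part of these changes in the ZNF results was not tested. The share of counts from mitochondrial genes was 1.79 to 2.91% in untreated cells, 3.61 to 4.02% at 8 h and 1.89 to 2.02% at 24 h, and the nuclear-retained RNA MALAT1 stood at 8.13 to 11.8 CPM, 38.8 to 41.3 CPM and 11.9 to 15.4 CPM in the same order. NEAT1, another nuclear RNA, stood at 48.9 to 58.3, 88.4 to 100.2 and 27.1 to 34.2 CPM. The 8 h libraries thus stood apart in these measures, and the part of these differences in the ZNF results at 8 h was not tested.

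The members made up 0.5575 to 0.5665% of all counts in untreated cells, 0.5757 to 0.5795% at 8 h and 0.5662 to 0.5797% at 24 h. These are shares of unscaled counts, on which their total was slightly above the untreated range at 8 h, and at 24 h 1 library lay within that range. The TMM factors were 0.9826 to 0.997, 0.9775 to 0.9829 and 1.0201 to 1.039 in the same order. Scaling therefore lowers the 24 h totals relative to the others, and no rise at 24 h is read from these shares.

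ZNF22, a small Krüppel-type protein first studied in tooth development, showed the largest fall. Its levels were 47.6, 48.1 and 45.0 CPM in untreated cells, 19.2, 16.8 and 16.5 CPM at 8 h, and 11.9, 11.8 and 12.5 CPM at 24 h. The 3 groups did not overlap, and every later library was below every earlier one. Against untreated cells, its log2 difference came to -1.42 ± 0.06 (SE) after 8 h (adjusted p = 4.86e-10) and -1.96 ± 0.06 after 24 h (adjusted p = 4.6e-12), by the edgeR quasi-likelihood test with Benjamini-Hochberg adjustment across the 16556 genes tested. ZNF22 is a gene of 2 exons on the plus strand of chromosome 10, from 45000923 to 45005326 (GRCh38).

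Rises were led by ZNF143, an activator that binds the promoters of many protein-coding and small nuclear RNA genes, and ZNF692, also known as AREBP. ZNF143 stood at 25.8, 28.5 and 26.4 CPM in untreated cells, 70.8, 71.3 and 68.2 CPM at 8 h, and 68.8, 66.8 and 65.6 CPM at 24 h. It was 2.6-fold higher at 8 h (log2 1.38 ± 0.05, adjusted p = 8.78e-11) and 2.49-fold higher at 24 h (log2 1.32 ± 0.05, adjusted p = 1.08e-11, both edgeR), and the difference between times was -0.06 ± 0.04 on the log2 scale (adjusted p = 0.238). ZNF692 stood at 20.7, 22.1 and 21.0 CPM in untreated cells, 59.7, 57.0 and 60.6 CPM at 8 h, and 37.5, 37.7 and 34 CPM at 24 h. Both genes were above all untreated libraries at both times, and ZNF692 fell by 0.70 ± 0.05 on the log2 scale from 8 h to 24 h (adjusted p = 1.84e-08). ZNF143 spans 9460319 to 9528524 on the plus strand of chromosome 11, and ZNF692 spans 248850006 to 248859144 on the minus strand of chromosome 1.

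The other members with the largest called rises at 8 h were ZNF335, ZNF628 and ZNF331. ZNF335, a coactivator associated with H3K4 methyltransferase complexes, was at 52.4 to 60.3 CPM in untreated cells, 108 to 115 CPM at 8 h and 83.7 to 90.2 CPM at 24 h. ZNF628 was at 22.2 to 24.4 CPM, 40.5 to 42.4 CPM and 37.0 to 40.2 CPM, and the imprinted KRAB gene ZNF331 at 17.3 to 19.6 CPM, 30.7 to 31.8 CPM and 25 to 26.9 CPM in the same order. None of the 3 had a treated library within its untreated range. Their log2 fold changes at 8 h were 0.96 ± 0.05, 0.81 ± 0.05 and 0.76 ± 0.06.

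Falls at 8 h after ZNF22 were largest in ZNF496, ZNF32, ZNF7 and ZNF704. ZNF496, a SCAN-domain protein that binds the methyltransferase NSD1, stood at 49.6, 50.1 and 49.7 CPM in untreated cells, 27.7, 29.6 and 27.2 CPM at 8 h, and 24.9, 24.8 and 24.9 CPM at 24 h. Most of its fall was present at 8 h (log2 -0.82 ± 0.05), with a total of -1.001 ± 0.05 at 24 h. ZNF32 went from 12 to 13.7 CPM in untreated cells to 6.67 to 8.73 CPM at 8 h and 5.88 to 6.72 CPM at 24 h, where the 8 h and 24 h libraries overlapped and the call between the times (-0.30 ± 0.10) was lost in 4 of 17 alternatives. The KRAB gene ZNF7 went from 16.4 to 17.8 CPM to 10.0 to 10.7 CPM and then 6.90 to 7.56 CPM, and ZNF704 from 10.0 to 11.7 CPM to 6.20 to 7.05 CPM and then 4.10 to 4.95 CPM.

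At 24 h, 9 members were called with more than a 1 unit log2 difference, of which 8 were lower (ZNF22, ZNF7, ZNF704, ZNF358, ZNF777, ZNF32, ZNF768 and ZNF496) and 1, ZNF143, was higher. ZNF358 stood at 33.4 to 38.8 CPM in untreated cells, 22.9 to 25.7 CPM at 8 h and 16.1 to 17.8 CPM at 24 h (log2 -1.08 ± 0.07 at 24 h), although 20.07% of its exon bases lie under exons of another gene on the same strand, and 12.09% of its 100-base stretches occur in another gene, so that its counts are uncertain. The KRAB gene ZNF777 stood at 27.5 to 30.2 CPM, 17 to 19.2 CPM and 13.4 to 14.5 CPM. Both genes stepped down at each time without overlap.

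ZNF488, a repressor that acts with OLIG2 in the oligodendrocyte lineage, rose mainly late. It was at 24.5, 23.6 and 26.3 CPM in untreated cells, 29.8, 30.4 and 30.3 CPM at 8 h, and 48.6, 51.7 and 46.8 CPM at 24 h. The rise against untreated cells was log2 0.29 ± 0.06 at 8 h and 0.99 ± 0.05 at 24 h, and the step of 0.70 ± 0.05 from 8 h to 24 h was the only member rise between times beyond 0.5 (adjusted p = 2.83e-08). ZNF407, which carries 23 finger matches, was at 12 to 12.5 CPM, 17.2 to 19.7 CPM and 19.7 to 20.5 CPM (log2 0.71 ± 0.06 at 24 h). Its 8 h and 24 h libraries nearly met at 19.7 CPM, and the difference between times did not pass the test (adjusted p = 0.0728).

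At 8 h, 59 members were called higher and 50 lower at an adjusted p under 0.05 (29.65 and 25.13% of 199). Among all genes tested 25.2% were called higher and 24.5% lower, and among the 9552 genes tested that had at least 10 CPM in untreated cells these shares were 26.7 and 31.8%. At 24 h, 50 members were called higher and 65 lower (25.13 and 32.66%), beside 25.7 and 26.8% of all genes tested and 26.9 and 35.9% of those at 10 CPM or more. Since the members were chosen by their levels in the untreated libraries, which also enter both of these comparisons, nothing is read from the counts beyond their size.

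The comparison of 24 h with 8 h used libraries that played no part in choosing the members. Here 36 members were higher at 24 h and 73 lower (18.09 and 36.68%). Of all genes tested 26% were higher and 28.8% lower, and of genes at 10 CPM or more 29.4% and 34.9%. The share of members called lower was thus near that of genes at 10 CPM or more, and the share called higher was below it, a difference that was described and not tested. Those genes share the members' lower limit and were not matched to the members by level. With the limit of 20 CPM in untreated cells in place of 10, 16 of 103 members were higher and 45 lower. No share of other genes was taken at that limit.

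**Figure D1:**
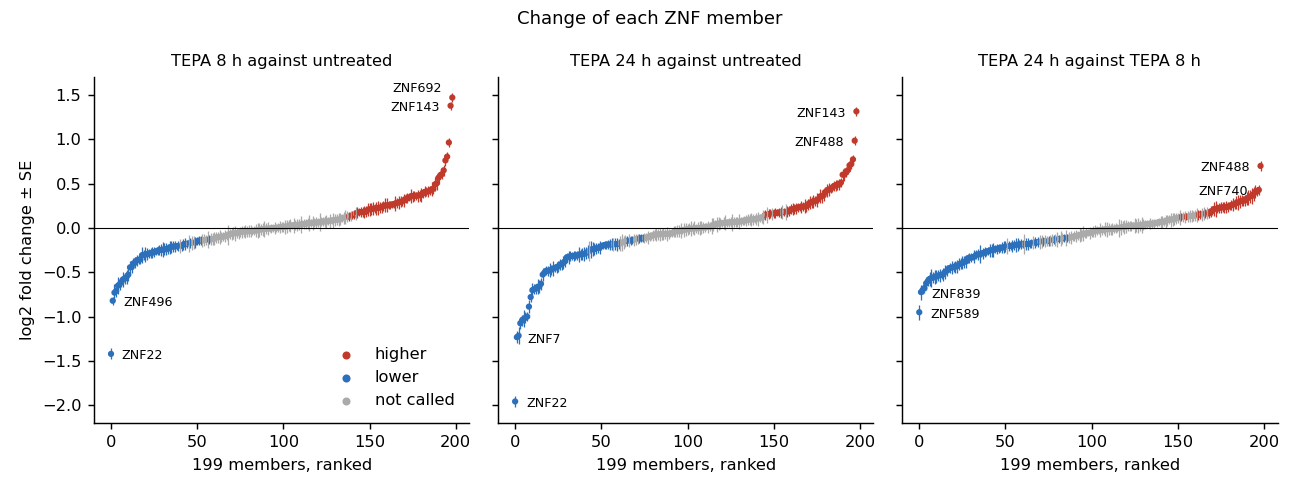
Log2 fold change (vertical axis) of the 199 members ranked within each comparison, with bars of 1 SE and colours for an adjusted p under 0.05. Called changes are mostly small: beyond 0.5 on the log2 scale there were 10 higher and 11 lower at 8 h, 10 and 18 at 24 h, and 1 and 15 between the times.

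Changes were small in most members. With a log2 fold change beyond 0.5 as a second condition, 10 members were higher and 11 lower at 8 h, beside 10.1 and 7.67% of all genes tested and 3.8 and 5.23% of genes at 10 CPM or more, and the members' own shares were 5.025 and 5.528%. At 24 h the members were 10 higher and 18 lower (5.025 and 9.045%), beside 10.2 and 8.46% of all genes tested and 4.06 and 6.69% of those at 10 CPM or more. Between 24 h and 8 h, 1 member was higher and 15 were lower (0.5025 and 7.538%), beside 10.4 and 10.8% of all genes tested and 5.74 and 6.82% of genes at 10 CPM or more. Libraries of the 2 groups did not overlap for 119, 126 and 127 members at 8 h, at 24 h and between the times (59.8, 63.32 and 63.82%), where 57.8, 57.2 and 62% of all genes tested and 66.6, 65.7 and 70.5% of genes at 10 CPM or more did not overlap.

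The median log2 fold change of the members was 0.01 at 8 h, -0.02 at 24 h and -0.06 between the times. The sign was not stable at the first 2, since upper-quartile factors gave 0.00933 at 24 h, members chosen on the TEPA libraries gave 0.00468 at 24 h, and leaving out TEPA 8 h replicate 1 gave -0.00478 at 8 h. Between the times the median was -0.0295 with only the 2 groups fitted. All genes tested had medians of -0.0013, 0.0023 and -0.016, and genes at 10 CPM or more had -0.02, -0.03 and -0.02. The lines in the plot of distributions part mainly on the side of higher values between 24 h and 8 h. Of the 238 ZNF genes tested under 10 CPM, 40 were higher and 38 lower between the times (16.81 and 15.97%), with a median of 0.0051.

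**Figure D2:**
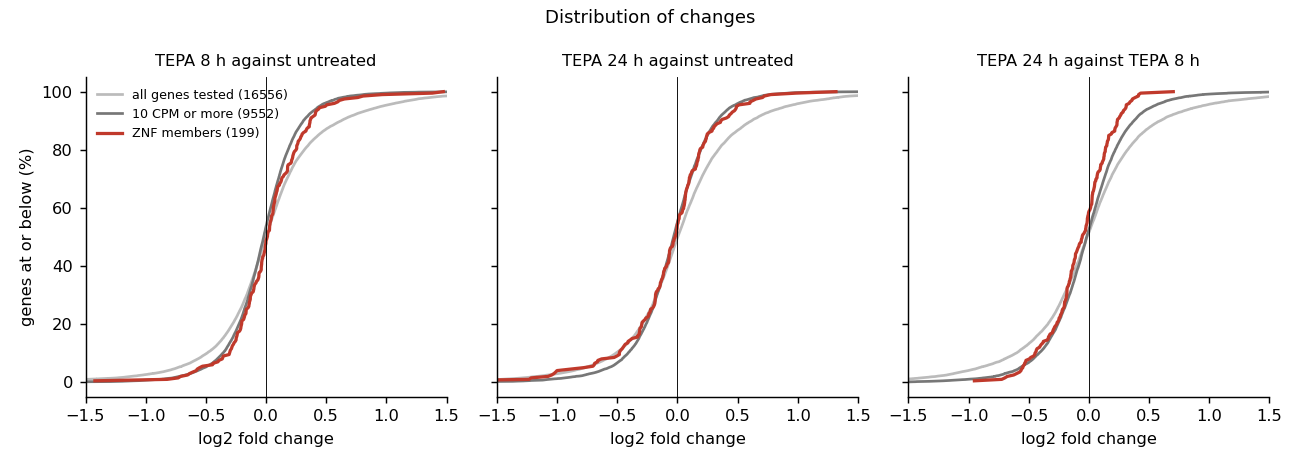
Cumulative share of genes (percent) at or below each log2 fold change for all 16556 genes tested, the 9552 of them at 10 CPM or more in untreated cells, and the 199 ZNF members. In the right panel the member line reaches 100% at 0.70, and the members' median is -0.06 beside -0.02 for both other lines.

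Between the times the largest falls were those of ZNF589, ZNF839, ZNF692, ZNF276 and ZNF593. ZNF589, a KRAB gene first found in blood stem cells, was at 10.9, 10.3 and 11.5 CPM in untreated cells, 14.4, 14.7 and 16.8 CPM at 8 h, and 8.00, 8.41 and 7.26 CPM at 24 h. It was thus above all untreated libraries at 8 h and below all of them at 24 h, and the step between the times was -0.95 ± 0.08 on the log2 scale (adjusted p = 1.24e-07, edgeR). ZNF276 was at 24.3 to 28.6 CPM, 38.4 to 41.2 CPM and 24.6 to 25.8 CPM, so that its 24 h libraries lay inside the untreated range. For ZNF839 (12.2 to 13.3, 12.1 to 13.7 and 7.06 to 8.57 CPM) the untreated and 8 h libraries overlapped and only the 24 h libraries stood below.

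Rises between the times were smaller. After ZNF488 came ZNF740 (26.1 to 29.5, 27.9 to 28.7 and 37.6 to 38.5 CPM), ZNF510 (18.3 to 19.6, 19.2 to 19.4 and 25.2 to 26.5 CPM), ZNF385A (18.9 to 22.4, 17.6 to 19.4 and 23.9 to 26.1 CPM) and ZNF652 (14.8 to 16.8, 14.5 to 16.7 and 18.5 to 22.5 CPM), in the order untreated, 8 h and 24 h. In all 4 the untreated and 8 h libraries overlapped and the 24 h libraries lay above both. Their steps from 8 h to 24 h were 0.43 ± 0.05, 0.41 ± 0.05, 0.41 ± 0.07 and 0.38 ± 0.08. ZNF385A is an RNA-binding modulator of p53, and ZNF652 a corepressor-binding repressor, while ZNF510 has a KRAB box.

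**Figure D3:**
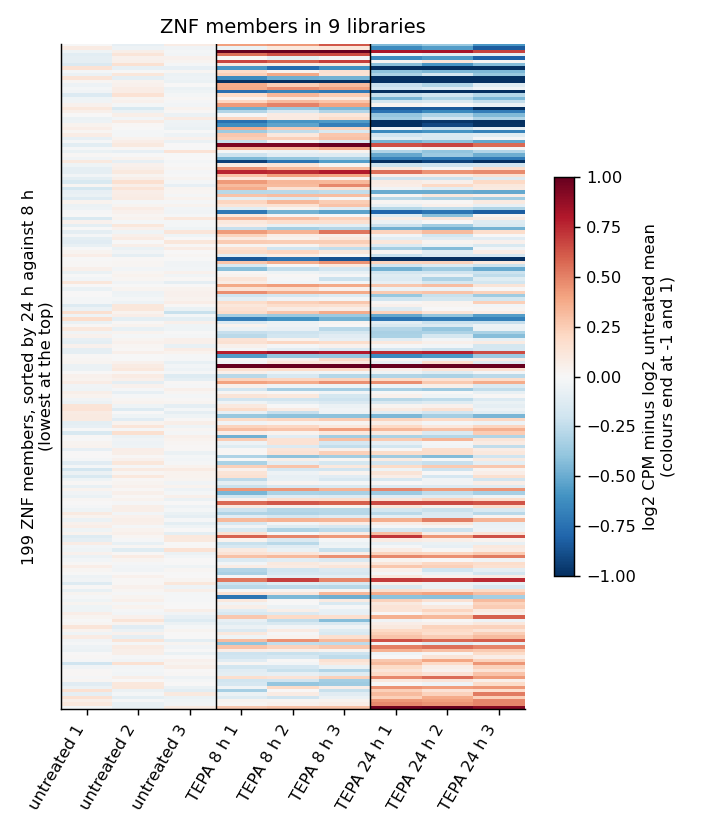
Log2 CPM of each of the 199 members (rows) in the 9 libraries (columns) minus the log2 of its untreated mean, with rows sorted by the change from 8 h to 24 h and colours ending at -1 and 1. Replicates of a group look alike, and the topmost row, ZNF589, is red at 8 h and blue at 24 h.

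Compared per length of exon, the highest members in untreated cells were ZNF622 at 34.2 CPM per kb of exon, ZNF593 at 26.8, ZNF22 at 22.3, ZNF768 at 20.9 and ZNF598 at 20.1, against a median of 3.68 for the 198 members with a length. At 24 h the same genes were at 24.4, 16.9, 5.74, 10.4 and 17.6 on this scale, and at 8 h they were at 26.6, 26.1, 8.32, 13.7 and 24.2. The 5 were picked by the same untreated libraries, so nothing is read from their direction.

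A list of ZNF proteins that act on RNA, ribosomes or the spindle held 10 genes, of which 9 were members. At 8 h, 4 of the 9 were higher and 1 lower, at 24 h none was higher and 5 were lower, and from 8 h to 24 h none was higher and 7 were lower, with medians of 0.08, -0.19 and -0.24 on the log2 scale. The shares higher were 44.44, 0 and 0%, beside 25.2, 25.7 and 26% of all genes tested. Of genes at 10 CPM or more 26.7, 26.9 and 29.4% were higher. The shares lower were 11.11, 55.56 and 77.78%, beside 24.5, 26.8 and 28.8% of all genes tested. Of genes at 10 CPM or more 31.8, 35.9 and 34.9% were lower in these comparisons. The list holds few genes and was chosen with earlier results known. The step of ZNF622 between the times (-0.12 ± 0.05) lost its call in 13 of 17 alternatives. ZNF598, the ubiquitin ligase that marks collided ribosomes, went from 92.2, 97.7 and 93.9 CPM in untreated cells to 109, 118 and 114 CPM at 8 h and 83.3, 85 and 79.97 CPM at 24 h, a step of -0.46 ± 0.04 between the times (adjusted p = 2.15e-07, edgeR). The treated libraries lay on either side of the untreated ones, above them at 8 h and below them at 24 h.

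ZNF593, a factor in biogenesis of the large ribosomal subunit, was at 18.4 to 20.2 CPM in untreated cells, 18.4 to 19.7 CPM at 8 h and 11.2 to 13.2 CPM at 24 h. ZNF622, which acts in maturation of the same subunit, went from 56.6 to 60.9 CPM to 45.1 to 46.0 CPM at 8 h and 39.8 to 44.5 CPM at 24 h. ZNF207 (BuGZ), a spindle protein that binds BUB3, was at 126 to 134, 133 to 143 and 112 to 114 CPM. ZNF593 and ZNF207 were called lower at 24 h and not at 8 h, whereas ZNF622 was called lower at both times.

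ZNF346, which binds double-stranded RNA, was called higher at 8 h (log2 0.30 ± 0.05) and lower from 8 h to 24 h (-0.24 ± 0.05), and ZNF106 was called higher at 8 h (0.18 ± 0.04). ZNF326, part of a complex that links splicing to RNA polymerase II, was called higher at 8 h at 0.23 ± 0.08, a call that was lost in 3 of 17 alternatives. ZNF638, which silences unintegrated retroviral DNA, was at 94.5 to 99.4, 96.9 to 100, and 96.1 to 102 CPM and was called in no comparison. ZNF706, at 77.5 to 83.9 CPM in untreated cells, was lower at 24 h by log2 -0.20 ± 0.04.

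**Figure D4:**
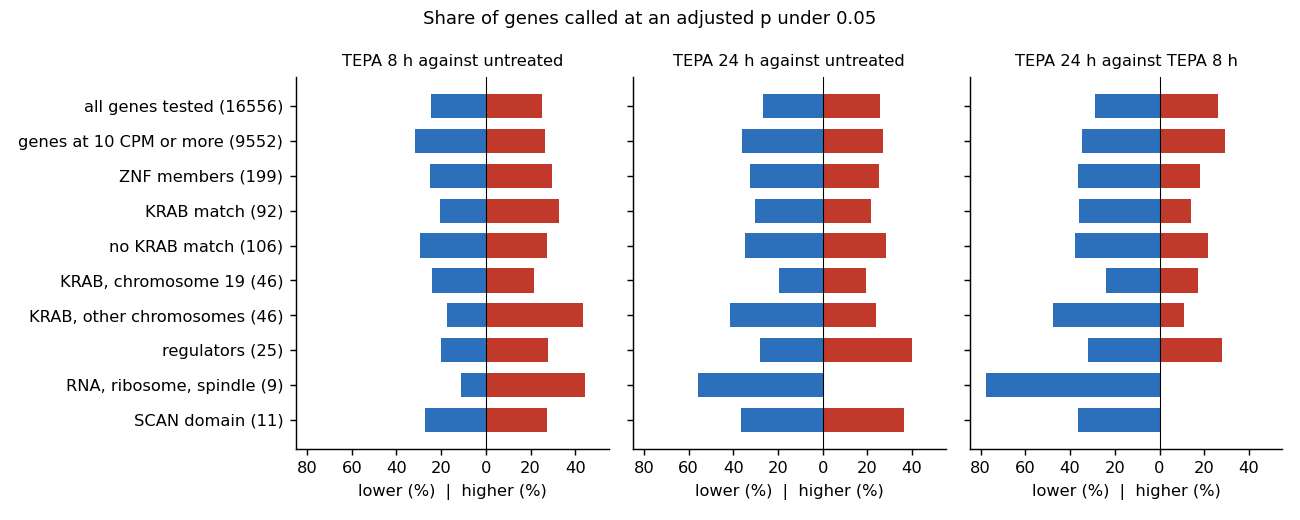
Share of genes (percent) called lower (blue, to the left) and higher (red, to the right) at an adjusted p under 0.05, for all genes tested, genes at 10 CPM or more, the members and groups of members, with the number of genes in brackets. In the right panel 7 of the 9 RNA, ribosome and spindle members and 22 of the 46 KRAB members off chromosome 19 are lower. Of all genes tested 28.8% are lower there.

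A profile of the KRAB box matched the encoded protein of 92 members and did not match 106, with 1 member (ZNF720) not found in the annotation used. KRAB members held a median of 11 finger matches (range 0 to 31) and the others 6.5 (0 to 36), and 6 members had no match to the finger pattern. Of the 92, 30 were higher and 19 lower at 8 h (32.61 and 20.65%), 20 and 28 at 24 h (21.74 and 30.43%), and 13 and 33 between the times (14.13 and 35.87%). Of the 106, 29 were higher and 31 lower at 8 h (27.36 and 29.25%), 30 and 37 at 24 h (28.3 and 34.91%), and 23 and 40 between the times (21.7 and 37.74%). All genes tested had 25.2 and 24.5%, 25.7 and 26.8%, and 26 and 28.8%. Genes at 10 CPM or more had 26.7 and 31.8%, 26.9 and 35.9%, and 29.4 and 34.9%. Beyond a log2 fold change of 0.5 the KRAB members had 2 higher and 2 lower at 8 h (2.174% each). At 24 h they had 1 and 5 (1.087 and 5.435%). The members without a KRAB match had 8 and 9 (7.547 and 8.491%), and then 9 and 13 (8.491 and 12.26%). Between the times the KRAB members had 0 higher and 7 lower (0 and 7.609%), and the others 1 and 8 (0.9434 and 7.547%). At this limit all genes tested had 10.1 and 7.67%, 10.2 and 8.46%, and 10.4 and 10.8%. The genes at 10 CPM or more had 3.8 and 5.23%, 4.06 and 6.69%, and 5.74 and 6.82%. The difference between the groups was not tested.

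On chromosome 19 lay 68 members, 46 of them with a KRAB match, and another 46 KRAB members lay on other chromosomes. From 8 h to 24 h, 8 of the 46 KRAB members on chromosome 19 were higher and 11 lower (17.39 and 23.91%), with a median of 0.02 on the log2 scale. Of the 46 elsewhere 5 were higher and 22 lower (10.87 and 47.83%), with a median of -0.18. Of all genes tested 26 and 28.8% were higher and lower, and of genes at 10 CPM or more 29.4 and 34.9%. All 68 members on chromosome 19 had 19.12 and 27.94%, and all 130 elsewhere 17.69 and 41.54%. At 8 h the KRAB groups had 10 higher and 11 lower (21.74 and 23.91%), and 20 higher and 8 lower (43.48 and 17.39%), beside 25.2 and 24.5% of all genes tested. At 24 h against untreated cells they had 9 and 9 (19.57% each), and 11 and 19 (23.91 and 41.3%), beside 25.7 and 26.8%. The difference between the positions was not tested. Clustered genes share sequence and neighbourhood and are not independent of each other.

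Members differ in base composition, which is given here beside the groups above. Of the 66 members with the lowest GC content of their transcript (34.2 to 41.9%), 14 were higher and 18 lower from 8 h to 24 h, and of the 66 with the highest (53.1 to 70.9%), 9 were higher and 28 lower. The middle 66 (41.9 to 52.8%) had 13 higher and 27 lower. Of all genes tested 26% were higher and 28.8% lower between the times, and of genes at 10 CPM or more 29.4 and 34.9%. Across 198 members the Spearman correlation of GC content with the change from 8 h to 24 h was -0.16, and it was the same across 12663 protein-coding genes tested. Both are descriptions across genes, which are not independent replicates and which share the same 6 libraries.

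The corepressors that KRAB proteins act through were read from a list of 17 genes, none of them a ZNF. At 8 h 2 were higher and 7 lower (11.76 and 41.18%), at 24 h 4 and 8 (23.53 and 47.06%), and between the times 6 and 5 (35.29 and 29.41%). Of all genes tested, 25.2 and 24.5%, 25.7 and 26.8%, and 26 and 28.8% were higher and lower in these comparisons. Of genes at 10 CPM or more these shares were 26.7 and 31.8%, 26.9 and 35.9%, and 29.4 and 34.9%. The median of the list was -0.08, -0.10 and -0.0047. TRIM28, which binds the KRAB box, was at 597, 661 and 646 CPM in untreated cells, 590, 597 and 614 CPM at 8 h, and 458, 470 and 429 CPM at 24 h, which gave log2 -0.08 ± 0.04 for the earlier time (adjusted p = 0.145) and -0.49 ± 0.04 for the later one (adjusted p = 2.14e-07, edgeR). Only the 24 h libraries lay below the untreated range as a group.

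SETDB1, the H3K9 methyltransferase recruited by TRIM28, was at 33.5 to 34.4 CPM in untreated cells, 40.8 to 41.8 CPM at 8 h and 37.3 to 38.9 CPM at 24 h, higher at both times. The NuRD remodellers went opposite ways, with CHD3 at 386 to 394, 508 to 545 and 599 to 616 CPM and CHD4 at 22.0 to 23.8, 16.3 to 18.6 and 10.4 to 11.2 CPM. Exon overlap and shared sequence were not computed for the corepressors, so their part in these levels is not known. Of the HP1 genes, CBX1 was lower at both times (log2 -0.28 ± 0.04 and -0.40 ± 0.04), CBX5 was higher at 24 h (0.24 ± 0.04), and CBX3 was called in neither comparison. The HUSH subunit TASOR and the HUSH partner MORC2 were lower at 8 h (-0.30 ± 0.04 and -0.43 ± 0.05) and both rose from 8 h to 24 h (0.26 ± 0.04 and 0.18 ± 0.05).

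Of 8 listed ZNF repressors of retroelements and imprinted genes, 5 were members. At 8 h none was higher and 2 were lower, at 24 h none was higher and 2 were lower, and from 8 h to 24 h 1 was higher and 2 were lower. That is 0, 0 and 20% higher, beside 25.2, 25.7 and 26% of all genes tested. Of genes at 10 CPM or more 26.7, 26.9 and 29.4% were higher. The share lower was 40% in each comparison, of 5 genes, beside 24.5, 26.8 and 28.8% of all genes tested. Of genes at 10 CPM or more 31.8, 35.9 and 34.9% were lower. ZNF445, which maintains imprints, stepped down from 29.5, 27.4 and 28.7 CPM to 23.2, 25.5 and 23.3 CPM at 8 h and 17.1, 18.3 and 17.7 CPM at 24 h (log2 -0.69 ± 0.06 at 24 h, adjusted p = 1e-07). ZNF93, which binds LINE-1 elements, was at 12.9 to 15, 13.2 to 14.0 and 10.4 to 11.2 CPM and was lower only at 24 h (-0.33 ± 0.07). ZNF91, which binds SVA elements, was at 12.1 to 12.4, 12.3 to 14.1 and 11.8 to 12.9 CPM and was called in no comparison, and neither was ZNF638. The calls of ZNF765, lower at 8 h and higher from 8 h to 24 h, were lost in 4 and 6 of 17 alternatives.

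Of 17 listed SCAN-domain ZNF genes, 11 were members, and they had 3 higher and 3 lower at 8 h, 4 and 4 at 24 h, and 0 and 4 between the times. The shares higher were 27.27, 36.36 and 0%, beside 25.2, 25.7 and 26% of all genes tested. Of genes at 10 CPM or more 26.7, 26.9 and 29.4% were higher. The shares lower were 27.27, 36.36 and 36.36%, beside 24.5, 26.8 and 28.8% of all genes tested. Of genes at 10 CPM or more 31.8, 35.9 and 34.9% were lower. ZNF24 was lower at both times (log2 -0.35 ± 0.05 and -0.33 ± 0.05), as was ZNF496 above. ZNF274, which brings SETDB1 to the 3' ends of other ZNF genes, was at 37.1 to 37.3 CPM in untreated cells, 48.3 to 49.7 CPM at 8 h and 40.8 to 46.0 CPM at 24 h, higher at both times. ZNF202 stood at 10.5 to 12.7, 13 to 14.5 and 9.45 to 10 CPM, and its step between the times was -0.49 ± 0.08, while its calls against untreated cells, higher at 8 h and lower at 24 h, were each lost in 3 of 17 alternatives. ZNF394 and ZNF500 were called in no comparison, and neither was ZNF263, of whose 100-base stretches 48.32% occur in another gene.

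The list of transcription and chromatin regulators held 29 names, 25 of them members. At 8 h 7 were higher and 5 lower (28 and 20%), at 24 h 10 and 7 (40 and 28%), and between the times 7 and 8 (28 and 32%), with medians of 0.01, 0.01 and -0.02 on the log2 scale. Of all genes tested the shares were 25.2 and 24.5%, 25.7 and 26.8%, and 26 and 28.8%. Of genes at 10 CPM or more they were 26.7 and 31.8%, 26.9 and 35.9%, and 29.4 and 34.9%. ZNF143 and ZNF335 aside, no member of this list passed a log2 fold change of 0.5 upwards, and ZNF395 alone passed it downwards, at 16.1 to 16.6 CPM in untreated cells, 9.82 to 11.9 CPM at 8 h and 12.2 to 12.8 CPM at 24 h. ZNF395 shares 34.99% of its exon bases with another gene on the same strand. The small falls of ZNF131, ZNF281 and ZNF384 at 24 h lost their calls in 13, 12 and 14 of 17 alternatives.

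ZNF217, an oncogene amplified in breast cancer, was at 91.6 to 101, 95.0 to 98.2 and 91.9 to 96.7 CPM and was called in no comparison, like ZNF703, another gene amplified in breast cancer, at 30.4 to 33.9, 31.8 to 33.1 and 31.4 to 33.9 CPM. ZNF592 was higher at 8 h alone (64.2 to 65.3, 80.9 to 84.1 and 64.4 to 66.8 CPM), and ZNF655 had the same order (71.6 to 77.8, 89.1 to 92.9 and 68 to 75 CPM). ZNF462 was higher at both times (log2 0.33 ± 0.05 each), and ZNF618, which binds UHRF2, was lower at 24 h (-0.45 ± 0.05). ZNF644, a partner of the methyltransferases G9a and GLP, was lower at 8 h (-0.24 ± 0.05).

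ZNF143 has long been assigned the motif ACTACANNTCCCA, so the promoters of the members were searched for these letters on both strands, within 250 bases before and 50 bases after each RefSeq gene start (GRCh38.p14). Of the 168 members with a promoter entry, 16 held a match (9.524%), beside 1.652% of 27305 gene symbols, 3.287% of 11042 genes tested with an entry, and 17 of 227 member windows (7.489%) against 1.358% of all 35116 windows. Among these 16 members were 9 of the 81 KRAB members with an entry and 7 of the 87 without a KRAB match. Windows of 45 bases are shown, with the motif in capitals, for those of the 16 that are also among the members with the largest changes. The windows lie on the strand that reads the motif forward.

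ZNF32, chr10:43648861-43648905 on the plus strand: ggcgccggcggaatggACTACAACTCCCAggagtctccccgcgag
ZNF32, chr10:43648941-43648985 on the minus strand: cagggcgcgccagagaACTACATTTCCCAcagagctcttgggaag
ZNF331, chr19:53520872-53520916 on the plus strand: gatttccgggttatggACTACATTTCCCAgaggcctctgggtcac
ZNF358, chr19:7516046-7516090 on the plus strand: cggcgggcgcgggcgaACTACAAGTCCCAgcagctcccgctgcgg
ZNF628, chr19:55476473-55476517 on the plus strand: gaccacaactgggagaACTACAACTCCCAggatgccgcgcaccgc

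The match begins 126 bases before a RefSeq start in ZNF331, 41 bases before it in ZNF358 and 128 bases before it in ZNF628. ZNF32 holds a pair of matches, which begin 8 and 88 bases before one of its starts. The nearer of the pair, 13 bases long, runs across that start. ZNF628 and ZNF331 were among the largest rises and ZNF32 and ZNF358 among the largest falls, so that genes with these letters stood at both ends of the ranking. Of the 16, 5 were higher and 5 lower at 8 h, 7 and 5 at 24 h, and 3 and 6 between the times, with medians of -0.04, 0.09 and -0.04 on the log2 scale. The shares over all genes tested were 25.2 and 24.5%, 25.7 and 26.8%, and 26 and 28.8% in these comparisons. The 152 members with an entry and no match had medians of 0.03, -0.02 and -0.06. All 363 genes tested that held a match had medians of 0.05, 0.01 and -0.02, beside -0.02, -0.01 and -0.01 for the 11042 with an entry. A match describes the letters in the window and is not evidence of binding in these cells.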

How the data were processed

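The authors extracted RNA from MDA-MB-231 cells, made stranded mRNA libraries, checked paired-end reads with FastQC, aligned them to hg38 with HISAT2, and counted pairs over exons per gene name with featureCounts, strand used (annotation from Ensembl, GRCh38). What they deposited are whole-number counts for 9 libraries, not normalized. No column was left out.

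Genes were kept by filterByExpr in edgeR 4.0.16 (R 4.3.3) at its minimum of 10 counts (16556 genes, 99.95% of counts). A single quasi-likelihood fit with TMM factors (0.978 to 1.039) took in the 9 libraries. The Benjamini-Hochberg adjustment ran across every tested gene, and a call is an adjusted p under 0.05. SE is the size of the log2 fold change over the square root of F. The biological coefficient of variation was 0.0481. The procedure was tested on simulated counts for the 8 h comparison: of 15967 genes fitted, 79 of 94 changed 1.5-fold and 90 of 97 changed 2-fold were recovered. Another 13 genes that had not been changed were called. In the simulation all genes had the same spread and few were changed, unlike in the data.

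The members and lists were chosen with earlier results of these data known. Genes named are, per comparison, the 5 highest and 5 lowest called members whose libraries do not overlap, members on the role lists, the 5 highest per exon length, the 3 genes on each side of the CPM limit, and the corepressor list. Lengths, positions and proteins came from GENCODE v44 (198 of 199 members matched). KRAB boxes were found with a profile built from 192 proteins that match a strict pattern (pyhmmer 0.12.3, E-value 1e-05), in place of the letter pattern planned. Overlap and sharing of 100-base stretches were computed from the same annotation for ZNF genes only, and 11 and 18 members had more than 10% shared sequence or overlap. Tried as alternatives were DESeq2 1.42.0, factors by RLE or upper quartile, other filters, a fold limit, other membership limits, only the 2 groups compared, a replicate block, mitochondrial genes left out of the library sizes, and each library left out. One marker gene of the leukocyte list is not reported here.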

Additional observations from a re-analysis of the deposited data

Results flagged for a closer look

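The 10 members listed here are the 5 lowest and 5 highest log2 fold changes of 24 h against 8 h. They were drawn only from members called between the times whose 8 h and 24 h libraries did not overlap, so both traits were set by the choice. Of the 199 members 36 were called higher and 73 lower (18.09 and 36.68%), beside 26 and 28.8% of all genes tested. Libraries did not overlap for 127 members (63.82%), beside 62% of all genes tested. The log2 fold change was -0.95 for ZNF589, -0.72 for ZNF839, -0.70 for ZNF692, -0.68 for ZNF276 and -0.62 for ZNF593 on the lower side. On the higher side it was 0.70 for ZNF488, 0.43 for ZNF740, 0.41 for ZNF510, 0.41 for ZNF385A and 0.38 for ZNF652. ZNF589 was the one of the 10 that was called higher than untreated cells at 8 h and lower at 24 h. The share of mitochondrial counts and the level of MALAT1 were also highest at 8 h, and their part in these differences was not tested. Groups of 3 libraries were too small to be tested for single libraries that stand apart.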

How the results depend on the processing

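For the 87 named genes, none of the 166 calls reversed under the 17 alternatives run for each, and 183 of 2822 recomputed values, in 35 of the 166, no longer passed the threshold. With a fold limit of 0.5 the members called higher and lower were 10 and 11 at 8 h, 10 and 18 at 24 h, and 1 and 15 between the times, by the limit's own construction. With members at 20 CPM or more (103 genes) they were 35 and 32 (34 and 31.1%), 29 and 37, and 16 and 45. With members at 5 CPM or more (302 genes) 82 were higher and 62 lower at 8 h (27.2 and 20.5%). The 199 members had 29.65 and 25.13% there, and all genes tested 25.2 and 24.5%. Of the 302, 79 were higher at 24 h and 56 between the times, with the lower counts not given. Counts differ since membership itself changed, and no share of other genes was taken at either limit. The median log2 fold change was near zero and moved by more than the spread between libraries (SD 0.0107) in these cases, and the cause was not tested. At 8 h it was 0.0261 with upper-quartile factors, -0.000366 without a filter and 0.0351 with members chosen on the TEPA libraries. At 24 h it was 0.00933 with upper-quartile factors, -0.00227 at 5 CPM, -0.0382 at 20 CPM and 0.00468 with members chosen on the TEPA libraries. Between the times it was -0.0431 with RLE, -0.0427 with upper-quartile factors, -0.0295 with only the 2 groups, -0.0414 with DESeq2, -0.026 at 5 CPM, -0.0839 at 20 CPM and -0.033 with members chosen on the TEPA libraries. Leaving out 1 library gave medians of -0.00478 to 0.0172 at 8 h (lowest without TEPA 8 h replicate 1), -0.0394 to -0.0118 at 24 h (lowest without untreated replicate 1) and -0.0549 to -0.0427 between the times. The counts then ran from 45 to 59 higher and 42 to 53 lower at 8 h, 44 to 50 and 52 to 66 at 24 h, and 31 to 38 and 60 to 75 between the times. No pairing by replicate number was seen (correlations of same-numbered deviations from -0.080 to 0.038, and of other numbers from -0.054 to 0.073). Such a check over all genes tested could miss a weak pairing. With the replicate block the counts were 55 and 50, 49 and 59, and 34 and 68, with medians of 0.0129, -0.0158 and -0.0546.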
